A study of Mus musculus with 2 samples.

Results

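The Pax genes encode transcription factors that bind DNA through the paired domain. The 9 members Pax1 to Pax9 were taken by symbol from the gene tables made with GENCODE release M21 (mouse assembly mm10), out of 55536 genes, 22028 of them protein-coding. PolyA plus RNA-seq had been made from the facial prominences, the swellings that build the face, of B6NCrl mouse embryos at embryonic day 12.5. Replicate 1 was a pool of 120 embryos and replicate 2 a pool of 88, both of mixed sex with no treatment or altered allele in the labels, so a value is an average over many embryos and over all cells excised with the tissue. Each library started from 10 ng of RNA with oligo-dT priming, received ERCC spike-in RNAs and was tagmented. Both libraries belong to the same tissue and age, so the data give levels and the gap between 2 pools, not a comparison of conditions. No p-value was computed, because the smallest that exact 2-sided sign flips of 2 libraries allow is 0.5.

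Pax proteins fall into subfamilies by what follows the paired domain. Pax3 and Pax7, and likewise Pax4 and Pax6, carry a full homeodomain, Pax2, Pax5 and Pax8 a partial one, and Pax1 and Pax9 none. In the head, Pax3 and Pax7 act in the neural crest and in muscle progenitors, Pax6 in the lens, retina and nasal epithelium, and Pax9 and Pax1 in the pharyngeal pouches and, for Pax9, the mesenchyme of palate and teeth. Pax2, Pax8, Pax5 and Pax4 are best known from the ear, kidney, thyroid, B cells and endocrine pancreas.

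The members are related in sequence, which bears on how reads could be divided between them. The 120 coding bases below encode part of the paired domain and end where exon 5a is inserted in Pax6. They come from the GENCODE M21 transcript sequences, are written 5′ to 3′ for the 5 members detected in this tissue, and have in capitals the 62 bases identical in all 5.
Pax1: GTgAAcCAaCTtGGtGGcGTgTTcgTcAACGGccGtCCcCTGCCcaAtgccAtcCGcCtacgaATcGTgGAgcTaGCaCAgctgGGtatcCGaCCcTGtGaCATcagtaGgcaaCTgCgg
Pax9: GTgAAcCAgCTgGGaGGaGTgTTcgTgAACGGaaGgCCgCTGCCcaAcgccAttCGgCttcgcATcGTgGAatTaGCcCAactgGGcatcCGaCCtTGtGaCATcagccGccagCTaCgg
Pax3: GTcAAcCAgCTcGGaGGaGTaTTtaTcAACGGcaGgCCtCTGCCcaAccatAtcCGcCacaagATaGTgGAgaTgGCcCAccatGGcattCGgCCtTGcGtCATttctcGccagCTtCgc
Pax7: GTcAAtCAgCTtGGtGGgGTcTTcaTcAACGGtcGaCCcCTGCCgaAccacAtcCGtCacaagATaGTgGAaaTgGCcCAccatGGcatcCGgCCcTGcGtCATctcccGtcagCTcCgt
Pax6: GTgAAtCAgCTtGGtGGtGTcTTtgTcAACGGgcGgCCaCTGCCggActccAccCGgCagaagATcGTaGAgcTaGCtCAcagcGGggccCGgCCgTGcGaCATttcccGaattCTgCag

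Over all 9 members, 48 of the 120 bases were identical, and the 36 pairs shared between 59.2% and 82.5%. The closest pair was Pax3 and Pax7 at 82.5%, followed by Pax1 and Pax9 at 79.2% and Pax2 and Pax5 at 78.3%, so the pairs most alike in this block belonged to the same subfamily. Across whole annotated transcripts the longest exact run shared by any pair was 37 bases, between Pax3 and Pax6, and no run of 100 bases was shared by any pair. The expected count (an estimated number of reads that need not be whole) was within 0.005 of a whole number in both libraries for 3 of the 5 detected members, Pax3, Pax6 and Pax7.

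Summed expected counts were 28705073 in replicate 1 and 41092194 in replicate 2, of which ERCC spike-ins took 2.85% and 3.10%. All 8 facial mesenchyme markers and all 8 surface epithelium markers were detected, with summed levels of 904 and 943 TPM and of 339 and 350 TPM in replicates 1 and 2. TPM is a length-corrected share of all transcripts, and a gene with at least 1 TPM in both libraries is called detected here. Of markers of tissues outside the head, thyroid markers summed to 1.00 and 1.07 TPM with 0 of 4 detected, and kidney markers to 0.58 and 0.87 TPM with 0 of 4 detected and Umod at 0 counts. B cell markers summed to 3.45 and 2.85 TPM with 2 of 4 detected, the highest being Vpreb1 at 1.81 and 1.33 TPM. Endocrine pancreas markers summed to 0.27 and 0.55 TPM with 0 of 4 detected and Ins1 and Pdx1 at 0 counts. Of 6 trunk and somite markers 1 was detected, Tbx18 at 6.89 and 7.81 TPM, and Hoxc6 was at 0 counts.

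Of the 9 Pax genes, 5 were detected: Pax3, Pax1, Pax9, Pax6 and Pax7. Among all protein-coding genes the same rule found 60.7%. Pax3 had the highest mean level, Pax1, Pax9 and Pax6 followed closely together, and Pax7 stood just above the minimum. The 9 members summed to 65.6 TPM in replicate 1 and 79.1 TPM in replicate 2, a mean of 72.4 ± 9.50 (SD, n = 2). The 5 detected members carried 99.0% and 98.6% of this sum. The 4 leading members lay mostly below the median of 21.5 TPM over detected protein-coding genes, whose quartiles were 7.34 and 52.8 TPM, with Pax3 the exception in both libraries.

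**Figure D1:**
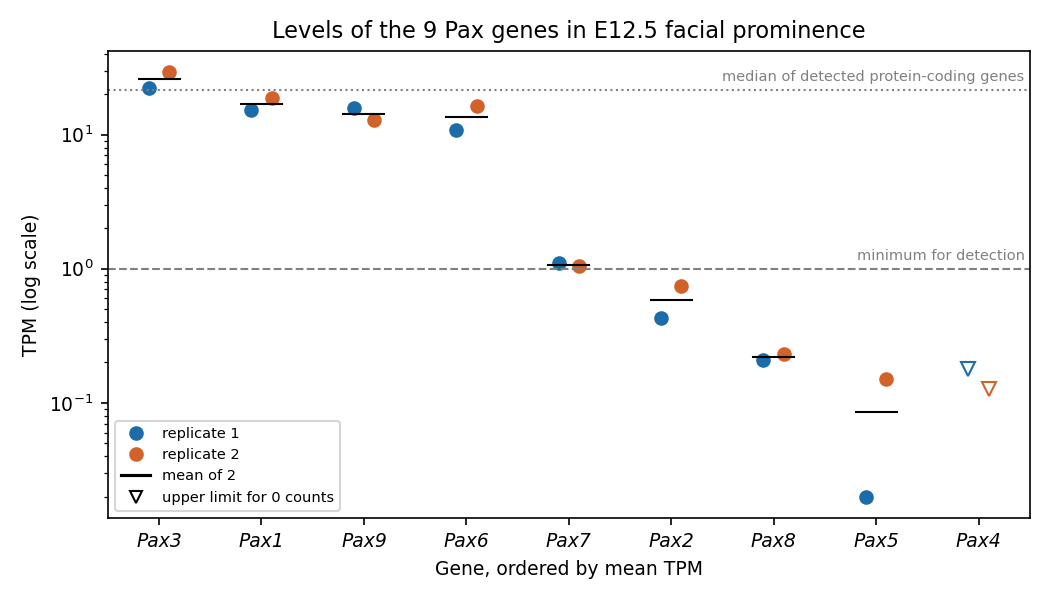
TPM of each Pax gene (points, 1 per replicate, log axis) with the mean of 2 libraries (bar), ordered by mean, and for Pax4 the limit that 0 counts allows (open triangles). 4 genes lie between 10.7 and 29.3 TPM, Pax7 sits at the minimum for detection, and the remaining 4 are below it.

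Pax3, a regulator of neural crest and of migrating muscle progenitors, lies on chromosome 1 (mm10, 78101267 to 78197134, minus strand). Its level was 22.3 TPM in replicate 1 and 29.3 in replicate 2, a mean of 25.8 ± 4.95 (SD, n = 2), from 1487 and 2789 expected counts. Replicate 2 was the higher library, and both lay above every other Pax gene. Pax3 ranked above 70.2% of protein-coding genes in replicate 1 and 74.9% in replicate 2, and made up 34.0% and 37.0% of the family's TPM.

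Its subfamily partner Pax7, which marks a part of the cranial neural crest and muscle progenitors, lies on chromosome 4 (139737062 to 139833528, minus strand). Its levels were 1.10 and 1.05 TPM, a mean of 1.08 ± 0.0354 (SD, n = 2), from 117 and 158 expected counts. The libraries were nearly level and both lay close to the minimum for detection. Pax3 exceeded Pax7 20.3-fold in replicate 1 and 27.9-fold in replicate 2 on the TPM scale. Fewer expressing cells and less RNA per cell cannot be told apart in RNA from whole tissue, here or at any level given.

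Pax1, a gene of the pharyngeal pouches and the sclerotome, lies on chromosome 2 (147361925 to 147393295, plus strand). It stood at 15.2 and 18.6 TPM, a mean of 16.9 ± 2.46 (SD, n = 2), from 686 and 1208 expected counts. Pax9, its closest relative and a gene needed for palate and teeth, lies on chromosome 12 (56691767 to 56712822, plus strand). It stood at 15.7 and 12.7 TPM, a mean of 14.2 ± 2.09 (SD, n = 2), from 1052 and 1229 expected counts. The order of this pair differed between the libraries: Pax9 over Pax1 was 1.04 in replicate 1 and 0.683 in replicate 2. Their sum was 30.9 and 31.4 TPM, a mean of 31.1 ± 0.368 (SD, n = 2), so the opposite gaps of both genes left the sum of the pair nearly level.

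Pax6, which acts in the lens, the retina and the nasal epithelium, lies on chromosome 2 (105668900 to 105697364, plus strand). It stood at 10.7 and 16.2 TPM, a mean of 13.5 ± 3.89 (SD, n = 2), from 467 and 954 expected counts. It was the lowest of the 4 leading members in replicate 1 and above Pax9 in replicate 2, with Pax6 over Pax9 at 0.683 and 1.27. Its share of the family's TPM was 16.3% and 20.5%.

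Pax2, a gene of the optic stalk, ear and kidney, lies on chromosome 19 (44756045 to 44837871, plus strand) and stood at 0.43 and 0.74 TPM from 27 and 59 expected counts. Pax8, a gene of the thyroid, ear and kidney, lies on chromosome 2 (24420560 to 24475599, minus strand) and stood at 0.21 and 0.23 TPM from 9 and 15.8 expected counts. Both were under the minimum in each library, and Pax2 was the higher of the pair 2.05-fold and 3.22-fold.

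Pax5, the B cell and midbrain member, lies on chromosome 4 (44524757 to 44710487, minus strand) and was listed at 0.02 and 0.15 TPM from 3.00 and 4.32 expected counts. The TPM values differed 7.5-fold with nearly the same number of reads, because the effective length used for Pax5 was 7905 bases in replicate 1 and 1086 in replicate 2. In replicate 2, Pax5-216 received 80.9% of the gene's abundance from 0.83 of a count. Pax4, a gene of endocrine pancreas, lies on chromosome 6 (28442334 to 28449353, minus strand) and had 0 counts in both libraries. At these depths 0 counts allow up to 0.179 TPM in replicate 1 and 0.126 TPM in replicate 2, taking 3 counts as the limit.

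By mean TPM the order was Pax3, Pax1, Pax9, Pax6, Pax7, Pax2, Pax8, Pax5 and Pax4. Pax1 and Pax9, and likewise Pax9 and Pax6, did not differ beyond their spread: their ranges overlapped and their order changed between the libraries. The gap between Pax5 and Pax4 was smaller than the sum of their SDs. The other 5 neighbouring pairs had ranges that did not overlap, and each gap was larger than the sum of the SDs. By the deposited posterior mean estimate, which spreads some abundance over every annotated transcript, the lower members stood in another order. Their means by it were 1.67 TPM for Pax5, 1.115 for Pax7, 0.825 for Pax8, 0.625 for Pax2 and 0.335 for Pax4. The order below Pax6 thus depended on the estimate.

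The pools differed for 4 of the 8 members with a count, by an exact conditional 95% interval of the ratio of counts (replicate 2 over replicate 1) after scaling to equal gene totals. The interval covers counting error only, because each pool gave 1 library, and it compares these 2 libraries. Reads were amplified and carry no molecular identifiers, so it may be too narrow even for counting error. Pax6 was higher in replicate 2 with a count ratio of 1.43 (interval 1.28 to 1.60), Pax3 with 1.31 (1.23 to 1.40) and Pax1 with 1.23 (1.12 to 1.36). Pax9 was lower in replicate 2, at 0.818 (0.753 to 0.889). Among all genes with a count 17.9% had an interval that left out 1, with 8.27% above and 9.62% below, and among detected protein-coding genes 30.0% did, with 14.6% above and 15.4% below. The interval narrows with depth, and the 4 members called were those with the most counts.

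For Pax7 the count ratio was 0.946 (0.740 to 1.21), for Pax2 1.53 (0.955 to 2.51), for Pax8 1.25 (0.518 to 3.20) and for Pax5 0.934 (0.158 to 6.37). The interval of Pax7 ended below the ratio of Pax3. Those of Pax2, Pax8 and Pax5, at 3 to 59 counts a library, included it, so a gap of that size was not detectable at this depth. On a log2 scale with 1 added to each TPM, replicate 2 over replicate 1, Pax6 stood at 0.55, Pax3 at 0.38, Pax1 at 0.28 and Pax9 at -0.28. Among detected protein-coding genes 0.658% had a value at least that of Pax6, 1.93% at least that of Pax3, 4.04% at least that of Pax1, and 5.15% lay at or below that of Pax9. The median over these genes was 0.00, and 97.9% lay within 0.5 of 0. For Pax6 the gap depended on the estimate. Its posterior mean TPM was 13.15 and 17.72, a smaller gap than that of the 10.73 and 16.23 TPM used here.

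By subfamily, Pax3 and Pax7 together had a count ratio of 1.29 (1.21 to 1.37), and Pax1 and Pax9 together 0.982 (0.923 to 1.05). Pax2, Pax5 and Pax8 together had 1.42 (0.955 to 2.14) from 39 and 79.2 counts. Scaling by ERCC spike-ins moved the median of all genes by -0.13 on the log2 scale. Under it Pax1 stood at 1.13 (1.03 to 1.24), Pax3 at 1.20 (1.13 to 1.28), Pax6 at 1.31 (1.17 to 1.47) and Pax9 at 0.750 (0.690 to 0.815), each on the same side of 1.

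**Figure D2:**
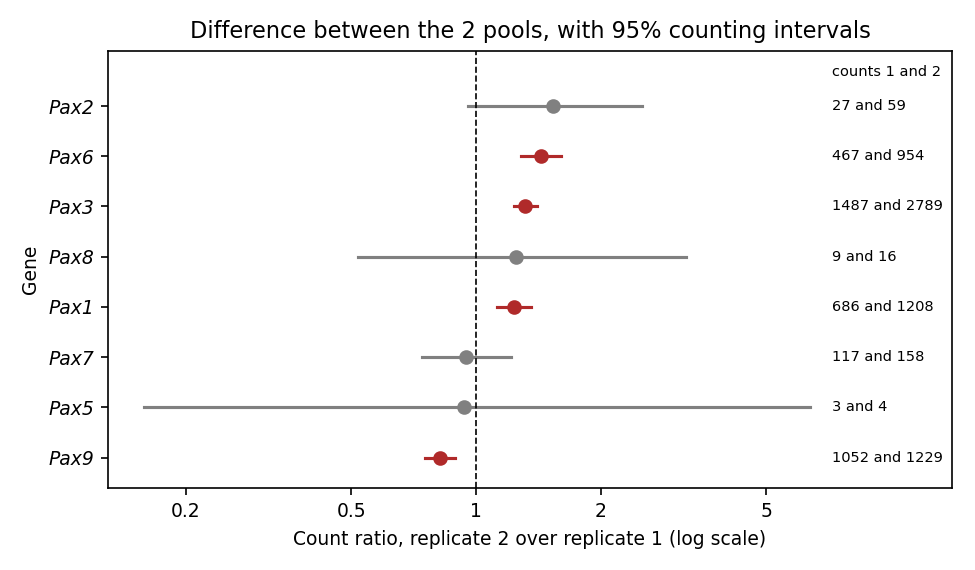
Ratio of expected counts, replicate 2 over replicate 1, scaled to equal gene totals (points, log axis) with exact 95% counting intervals (lines), for the 8 Pax genes with a count, and their rounded counts at the right. Red marks the 4 genes whose interval leaves out 1: Pax6, Pax3 and Pax1 above it and Pax9 below it.

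Markers of cell types in which these genes act also differed between the pools. Beside the counts of all marker lists stand the 60.7% of protein-coding genes detected. Among detected protein-coding genes 14.6% had an interval above 1 and 15.4% below. No marker list was tested against these shares. The 6 lens markers summed to 186 TPM in replicate 1 and 433 TPM in replicate 2, with 5 of 6 detected and 5 of 6 intervals above 1, from Cryaa at 88.1 and 221 TPM to Foxe3 at 0.21 and 1.20 TPM. Markers of retina and pigment epithelium summed to 41.0 and 64.9 TPM, with 5 of 6 detected, 5 intervals above 1 and Rpe65 at 0 counts. These lists and Pax6 were all higher in replicate 2. Melanoblast markers summed to 40.7 and 69.0 TPM (5 of 6 detected, 5 above 1), and 2 of them, Pmel and Tyr, also belong to the retina list.

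Skeletal muscle markers summed to 307 and 376 TPM (6 of 6 detected, 5 above 1), higher in replicate 2 as Pax3 was, while Pax7 was nearly level. The muscle sum was carried mostly by Actc1, at 171 and 204 TPM, and the interval of Myod1 included 1. Neuron markers went the other way, at 428 and 329 TPM with 6 of 6 detected and 6 of 6 below 1, as did pituitary markers at 137 and 89.5 TPM (4 of 6 detected, 4 below 1 and 1 above). The pituitary sum was carried by Pitx1, at 123 and 77.4 TPM, and the member above 1 was Cga, at 1.54 and 3.64 TPM. Inner ear markers summed to 46.6 and 22.4 TPM with 2 of 6 detected, carried by Oc90 at 40.9 and 17.9 TPM. For Pax2 and Pax8 the direction was unresolved, because both count ratio intervals included 1 at no more than 59 counts a library. Olfactory epithelium markers were at 39.9 and 41.2 TPM (6 of 6 detected) and forebrain markers at 41.8 and 39.1 TPM (5 of 6 detected). The part of these cell types in the Pax values was not tested.

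Genes that work with Pax proteins were described from 12 lists, of which 135 of 136 symbols were matched. Of these 135 genes, 99 were detected, and of the 132 with a count, 31 had an interval above 1 and 25 below. Beside these and the counts of each list stand the 60.7% of protein-coding genes detected. The shares above and below 1 were 8.27% and 9.62% among all genes with a count. They were 14.6% and 15.4% among detected protein-coding genes, while the lists also hold genes under the minimum. Nothing particular to a list was tested. The 11 matched cofactors and corepressors were all detected, with a median of 43.1 TPM. Trim28, a corepressor scaffold, stood at 389 and 375 TPM, and Paxbp1, which binds Pax3 and Pax7, at 74.1 and 76.7 TPM. Daxx, a chromatin corepressor, was at 57.2 and 54.8 TPM and the Groucho family member Tle2 at 55.8 and 46.3 TPM.

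All 12 genes of the Eya, Dach and sine oculis homeobox families, which form a network with Pax genes in placodes and muscle, were detected, with a median of 13.1 TPM. Eya1 stood at 33.9 and 35.4 TPM, Eya3 at 28.3 and 28.0 and Six2 at 29.8 and 26.0. The list had 2 intervals above 1 and 1 below, and its median log2 difference was -0.02.

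The list for Pax9 and Pax1 held genes of palate, teeth and pharyngeal pouches, and 12 of 14 were detected at a median of 12.7 TPM. Its highest members were the homeobox gene Msx1 (319 and 308 TPM), the cartilage regulator Sox9 (108 and 116), the palate regulator Osr2 (89.9 and 92.2) and the Wnt effector Lef1 (83.7 and 83.9). The list had 4 intervals above 1 and 3 below, and its median log2 difference was 0.09, between the values of Pax1 and Pax9.

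The neural crest list for Pax3 and Pax7 had 14 of 15 genes detected at a median of 8.30 TPM, with 9 intervals above 1 and 0 below. Its median log2 difference was 0.14, beside 0.38 for Pax3 and -0.03 for Pax7. The genes above 1 included Dct and Tyrp1, also counted among the melanoblast markers, and Mitf, also on the lens and eye list. Alx1, a homeobox gene of frontonasal mesenchyme, stood at 103 and 150 TPM, and Tfap2b, a crest regulator, at 21.6 and 32.5 TPM. Snai2 stood at 55.7 and 65.1 TPM and Tgfb2 at 57.8 and 61.5 TPM. Of the muscle progenitor list, 8 of 10 were detected (median 7.82 TPM, 4 above 1, 1 below), among them Myog at 49.4 and 59.5 TPM, Myod1 at 21.5 and 22.6 and Msc at 17.0 and 16.1.

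For Pax6, the list of lens and eye and the list of nose and forebrain differed in sign. The lens and eye list had 14 of 16 genes detected (median 7.81 TPM), 10 intervals above 1 and 2 below, and a median log2 difference of 0.27. The crystallin Cryba1 stood at 52.6 and 124 TPM and Cryab at 19.9 and 28.2, while the eye regulator Mab21l1 was at 61.6 and 54.7. The nose and forebrain list had 10 of 12 detected (median 4.51 TPM), 1 interval above 1 and 7 below, and a median of -0.24. Dlx5 was at 80.8 and 54.8 TPM, Hes5 at 29.3 and 23.1, Ebf2 at 22.8 and 24.99 and Emx2 at 18.6 and 16.1. Over all protein-coding genes the median was 0.00.

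Lists for the members under the minimum are given beside the 60.7% of protein-coding genes detected, and no difference from that share was tested. The ear, optic stalk and midbrain list had 7 of 12 genes detected (median 1.62 TPM), after Oc90 led by Gata3 at 18.6 and 17.6 TPM, Spry1 at 10.0 and 10.6 and Vax2 at 5.84 and 6.99. The thyroid list had 3 of 8 (median 0.425 TPM): Hhex at 6.86 and 6.12 TPM, Nkx2-1 at 3.46 and 1.27, and Foxe1 at 2.33 and 1.41. The kidney list had 4 of 8 (median 1.35 TPM), with Osr1 at 69.2 and 68.3 TPM. The B cell list had 5 of 10 (median 0.843 TPM), with Ebf1 at 59.7 and 51.7 TPM and the kinase Blk at 0 counts. The endocrine pancreas list had 1 of 10 (median 0.203 TPM), Isl1 at 43.6 and 35.0 TPM, with Ins1 and Pdx1 at 0 counts. Several of the genes that were detected here, among them Osr1, Emx2, Ebf1 and Isl1, are also known from head mesenchyme or neurons.

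**Figure D3:**
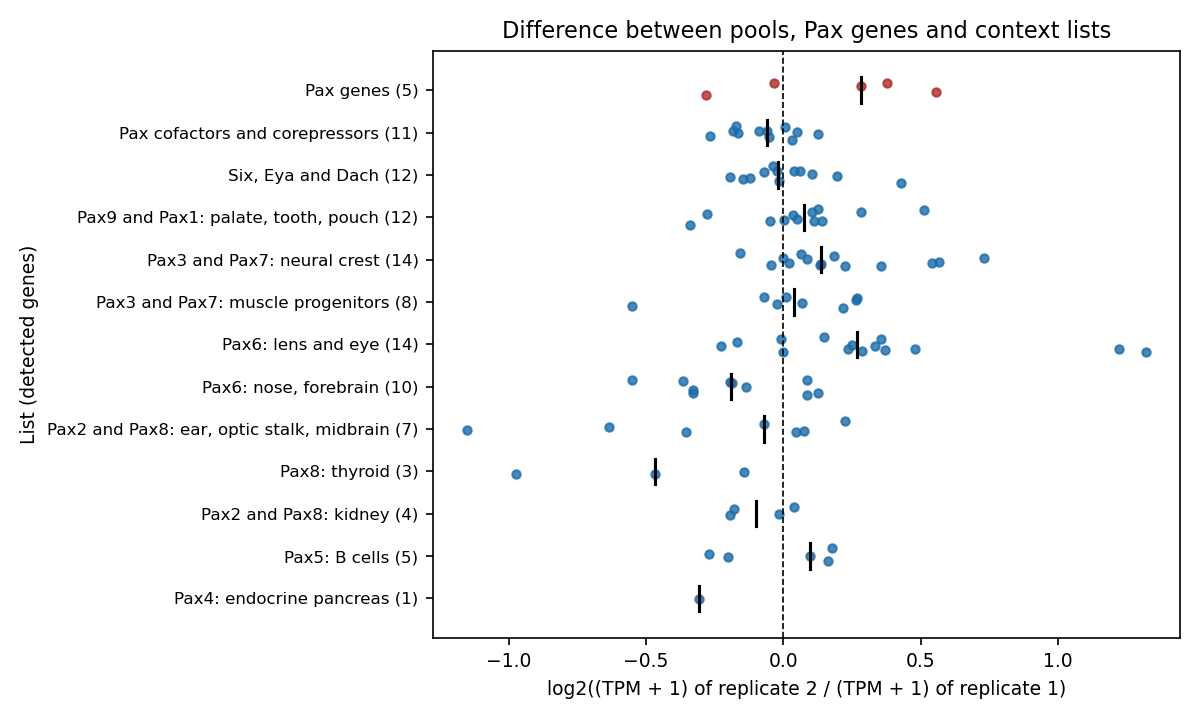
Difference between the pools on the log2(TPM + 1) scale, replicate 2 less replicate 1, for the detected Pax genes (red) and the detected genes of the 12 lists (blue, number in brackets), with the median of each list (black bar); vertical scatter within a list has no meaning. Of the lists with at least 5 detected genes, the lens and eye list of Pax6 has the highest median (0.27) and its nose and forebrain list the lowest (-0.19).

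The transcript tables give each transcript's percent of its gene's abundance. All 5 detected members had the same leading transcript in both libraries, which 90.5% of 12094 detected protein-coding genes with several transcripts had too. The leading share changed by 0 to 6.26 points over these members, beside a median of 3.23 points over those genes. The shares are model estimates and carry no interval here.

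Pax3-202 carried 78.5% and 81.5% of Pax3 and Pax3-201 8.91% and 6.64%. They differ at the 3′ end of the coding sequence, where Pax3-202 reads on into the last intron of Pax3-201 (chromosome 1, 78102836 to 78103327, 492 bases). The last coding bases are shown because this end separates the major from the minor form. Lower case marks the 30 shared coding bases and capitals the bases particular to each form, without the stop codon, from the GENCODE M21 transcripts.
Pax3-202: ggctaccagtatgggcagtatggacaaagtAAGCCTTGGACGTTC
Pax3-201: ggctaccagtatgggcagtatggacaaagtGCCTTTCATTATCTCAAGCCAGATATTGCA

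The form with the 15-base end and 1437 coding bases thus prevailed over the form with the 30-base end and 1452 coding bases. Pax3-203, a transcript with no annotated coding sequence whose last exon runs into an intron (78183456 to 78185776, 2321 bases), carried 12.6% and 11.9%. All 3 shares differed by at most 3.02 points between the libraries. Pax7-201 carried 100% of Pax7 in both.

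Pax1-201 carried 92.4% and 94.4% of Pax1, and the retained-intron transcript Pax1-203 6.39% and 4.18%. Pax9-201 carried 57.7% and 55.0% of Pax9. Pax9-202, which keeps intron 1 (chromosome 12, 56695865 to 56696573, 709 bases), carried 23.8% and 21.1%, and Pax9-203, which begins upstream with a 13-base exon (56691767 to 56691779) and has the same 1026 coding bases as Pax9-201, carried 18.5% and 23.9%. Of the 7751 genes with annotated retained-intron transcripts, 27.6% had a mean share at or above that of Pax9, and the median was 10.9%. Pax9 thus held more of its abundance in forms other than the leading one than Pax1 or Pax3 did, in both libraries.

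**Figure D4:**
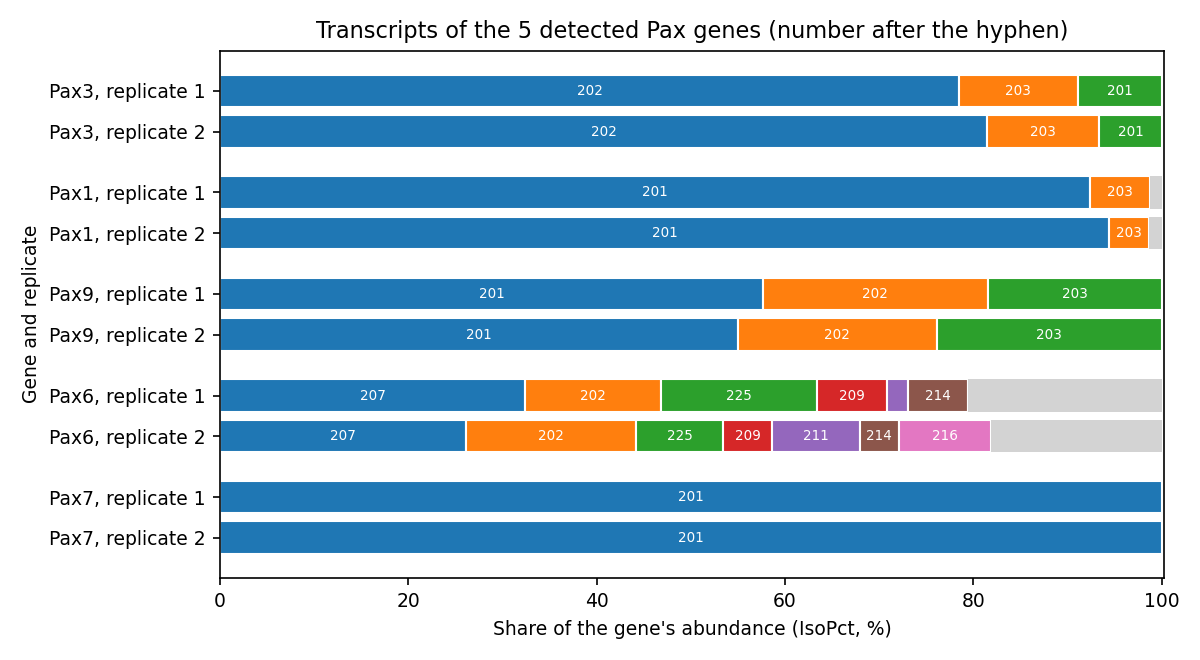
Percent of each detected Pax gene's abundance carried by its transcripts in each replicate (bars, 0 to 100%), with the number after the hyphen of transcript names written inside segments of at least 4% and transcripts under 5% in both replicates pooled in grey. Pax7, Pax1 and Pax3 are carried mostly by 1 transcript, Pax9 by 3 and Pax6 by many.

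Pax6 was the most divided member, with 26 annotated transcripts of which 16 received a share in at least 1 library. Pax6-207, which begins at the upstream start, led with 32.4% and 26.1%. Pax6-202, which begins 6295 bases further downstream, carried 14.5% and 18.0%, and Pax6-225 16.5% and 9.26%. The retained-intron transcript Pax6-209 carried 7.46% and 5.20%, and the short coding transcript Pax6-214 6.45% and 4.07%. Pax6-211 carried 2.20% and 9.37% and Pax6-216 0% and 9.85%, both without an annotated coding sequence and both higher in replicate 2. By the deposited posterior mean estimate, which spreads some abundance over every annotated transcript, Pax6-207 still led but with 16.9% and 22.1%, Pax6-225 held 7.37% and 5.42%, Pax6-211 2.09% and 5.62%, and Pax6-216 5.25% and 8.83%. Shares of single Pax6 transcripts thus depended on the estimate.

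Exon 5a of Pax6 (chromosome 2, 105684751 to 105684792, 42 bases, coding) lengthens the paired domain and is known to change its DNA binding. It is shown in capitals between the 30 flanking coding bases, from Pax6-225, above the junction without it, from Pax6-207.
Pax6-225: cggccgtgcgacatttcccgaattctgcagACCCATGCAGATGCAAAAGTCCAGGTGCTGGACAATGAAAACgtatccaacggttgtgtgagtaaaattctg
Pax6-207: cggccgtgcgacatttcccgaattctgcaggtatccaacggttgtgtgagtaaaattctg

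Among the 8 full coding transcripts, those with exon 5a (1308 coding bases) made up 23.1% in replicate 1 and 21.3% in replicate 2, and the others had 1266 coding bases. Over all 16 transcripts that cross the exon's position the percent with it was 24.4% and 20.7%. The form without the exon was the major one in each library and by either count. By the posterior mean estimate, the percent among full coding transcripts was 31.5% and 23.2%.

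RefSeq places 2 starts of Pax6 in its GRCm38.p6 promoter table, at positions 105668896 and 105682463. The 150 bases before each are shown because transcripts from both regions received a share, with the only match to the motifs searched in capitals.
Upstream start, chr2:105668746-105668895, plus strand: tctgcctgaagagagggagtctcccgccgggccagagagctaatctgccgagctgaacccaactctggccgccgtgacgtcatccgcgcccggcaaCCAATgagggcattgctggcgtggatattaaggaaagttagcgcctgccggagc
Internal start, chr2:105682313-105682462, plus strand: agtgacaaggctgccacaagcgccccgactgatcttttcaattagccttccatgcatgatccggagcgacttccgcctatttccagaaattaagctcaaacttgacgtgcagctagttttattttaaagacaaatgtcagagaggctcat

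The TATA box motif TATAAA, the CCAAT box and the GC box motif GGGCGG were searched on both strands. The window before the upstream start held 1 CCAAT and the window before the internal start held 0 of the 3 motifs. Of 32851 RefSeq promoters, windows of the same length held the TATA box motif in 7.57%, the CCAAT box in 24.5% and the GC box motif in 28.6%. A match describes letters and not a bound site.

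The 4 transcripts that begin within 100 bases of the upstream start carried 38.8% and 30.2% of Pax6. The 12 that begin between the starts carried 44.2% and 39.6%. The 10 that begin from 1000 bases before the internal start onward, all without an annotated coding sequence, carried 17.0% and 30.2%. Pax6-211 and Pax6-216 were the members of this last group with a higher share in replicate 2, and the latter begins 16426 bases from the upstream start, beyond the internal start. Pax6-209, the group's largest member in replicate 1 at 7.46%, begins 14858 bases from the upstream start, also beyond it. The share of the group thus covers more than transcripts that begin near the internal start. By the posterior mean estimate the last group held 26.3% and 30.2%, so its size in replicate 1 depended on the estimate.

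For the members under the minimum, Pax2-203 led with 60.9% and 35.6%, with Pax2-201 at 9.19% and 34.7%, resting on 27 and 59 counts. Pax8-201 led with 62.2% and 74.3%, resting on 9 and 15.8 counts. Such shares change by many points with a few reads.

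Several members overlap genes on the opposite strand, and no source used here states the strand setting of the counting, so reads from the overlap cannot be told apart. Pax1 shares 869 genomic bases with AI646519, at 3.49 and 3.92 TPM. Pax9 shares 1198 with Gm15524, at 4.17 and 3.68 TPM, and 189 with Slc25a21, at 0.71 and 0.83 TPM. Pax6 shares 1431 with Pax6os1, at 0 and 0.31 TPM. In sequence, 1.96% of the 100-base runs of Pax1 transcripts also occurred in AI646519 and 1.78% of those of Pax9 in Slc25a21, both on the opposite strand, so the overlaps cover little of either gene's transcripts. The genes that overlap Pax2, Pax5 and Pax8 each stood at 0.13 TPM or less in both libraries.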

How the data were processed

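PolyA plus RNA-seq of 2 libraries from separate embryo pools, per the labels, was analysed from the deposited gene and transcript tables, release M21 and, as an alternative, M4. Per the file headers the authors deposited the expected count, TPM as maximum-likelihood and posterior mean estimates, FPKM, and the percent of a gene's abundance per transcript. The sources used here name no aligner, quantifier or strand setting. Effective lengths of long features were the length minus 99 bases. Of genes with a count, 28.9% had a fractional expected count.

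Levels are deposited TPM, mean and SD over n = 2, detected from 1 TPM in both libraries, with a pseudocount of 1 on the log2 scale. Count ratios used rounded expected counts scaled to equal gene totals (27887968 and 39819334) with exact conditional (Clopper-Pearson) intervals at 95%. Library sizes left out rows without a gene name: the 96 spike-in rows took 2.85% and 3.10% of counts, and 26248 rows named by number 0.000139% and 0.000114%. Scaling alternatives used edgeR 4.0.16 factors and DESeq2 1.42.0 size factors, with no test from either, and spike-in counts. Scripts ran in Python 3.11.15 with pandas 2.3.3 and R 4.3.3, and were tested on simulated data.

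Members and gene lists were chosen with earlier results of these data known. Of 185 list symbols 184 matched. Named were all members, their transcripts of at least 5% in either library (the leading one for members under the minimum), genes overlapping a member and the nearest protein-coding neighbours, the 4 highest and the zero-count genes of each list of associated genes, and the highest and lowest marker of each list. Tyr, Cga, Dct, Mitf and Pax2-201 fall outside this rule and were chosen after their values were seen. Some items under this rule are not reported here. No gene was named for likeness to a Pax gene, because 2 libraries of 1 group give no pattern. Promoter sequences are from RefSeq (GRCm38.p6), transcript sequences from GENCODE M21.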

Additional observations from a re-analysis of the deposited data

How the results depend on the processing

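The number of Pax genes detected was 5 with a minimum of 0.5 TPM and with release M4, 4 with a minimum of 5 TPM or of 1 FPKM, 6 by posterior mean TPM, and 8 where any count in both libraries sufficed. The summed level was 46.2 in FPKM, another unit, 76.4 with release M4, and 65.6 to 79.1 TPM with 1 replicate left out, when the number detected stayed at 5. Genes of the lists detected numbered 69 to 128 over the minimums, and 100 to 101 with 1 replicate left out. The 4 count ratio calls were made under all 4 other scalings or releases. Under spike-in scaling the log2 differences of Pax1, Pax3, Pax6 and Pax9 were 0.15, 0.25, 0.43 and -0.41. Of the 8 members with a count, the sign over the 6 alternatives changed for Pax8 alone, from 0.02 to -0.00 under spike-in scaling. Posterior mean TPM was not among the 6. By it Pax5 stood at 1.90 and 1.44 and Pax8 at 0.87 and 0.78, both lower in replicate 2. The count ratio of Pax5 was below 1 too, at 0.934, so the sign of both genes depended on the measure. Mean TPM of Pax5 was 0.085 by maximum likelihood and 1.67 by posterior mean, that of Pax8 0.22 and 0.825, and that of Pax4 0 and 0.335. The leading transcript was the same in both libraries for all 5 detected members by every share used, and for 7 of the 8 members with a count in both. No paired analysis was possible because the labels give 1 group. Depth limits Pax2, Pax4, Pax5 and Pax8, with at most 59 counts a library. Each pool gave 1 library.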

Other observations

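The nearest protein-coding genes beside the Pax genes were described without a comparison. Beside Pax6, Rcn1, a calcium-binding protein of the endoplasmic reticulum, stood at 147 and 157 TPM in replicates 1 and 2, and Elp4, an Elongator subunit that lies 3662 bases beyond the end of Pax6, at 40.0 and 37.9 TPM. Beside Pax3, the Eph receptor Epha4 stood at 47.2 and 49.7 TPM and Sgpp2, a sphingosine phosphate phosphatase, at 2.24 and 3.26 TPM. Beside Pax9, Prps1l3 stood at 55.1 and 57.5 TPM and the homeobox gene Nkx2-9 at 0 and 0.03 TPM. Beside Pax1, the homeobox gene Nkx2-2 was at 0.19 and 0.26 TPM and the forkhead gene Foxa2 at 0.78 and 0.80 TPM. Beside Pax7, Tas1r2, a taste receptor gene, was at 0 counts in both libraries and Klhdc7a at 0.06 and 0.14 TPM.

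The neighbours of members under the minimum were often higher than the member itself. Snd1 beside Pax4 stood at 99.0 and 104 TPM, Melk and Zcchc7 beside Pax5 at 35.0 and 36.5 TPM and at 26.1 and 29.5 TPM, and Hif1an and Slf2 beside Pax2 at 35.0 and 34.6 TPM and at 39.4 and 40.3 TPM. Psd4 beside Pax8 stood at 0.73 and 1.68 TPM and Cacna1b at 2.08 and 2.60 TPM. Fscn3, on the other side of Pax4, was at 0 and 0.02 TPM.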
